A study of Mus musculus with 32 samples.

Results

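The matrix metalloproteinases (MMPs), their tissue inhibitors (TIMPs) and the related ADAM and ADAMTS proteases were described in mouse subcutaneous white fat. The members are the genes of the deposited expression table named Mmp, Timp, Adam or Adamts plus a number and, for some, 1 letter. That name rule took 56 of 18124 genes, 16 Mmp, 4 Timp, 18 Adam and 18 Adamts genes, and used no expression value. Tissue came from C57BL/6J mice 9 days after vertical sleeve gastrectomy (VSG), in which the stomach is cut down to a narrow tube, or after sham surgery. Each surgery was sampled at zeitgeber times 1, 7, 13 and 19 (ZT, in hours after lights on), with 4 animals per surgery and time and 1 library per animal, 32 libraries in all. Every animal, VSG and sham, had a liquid diet around the operation and was then offered it beside a high-fat diet (HFD), so the sham animals were not untreated. The labels give a weight loss for each animal with no unit, 16.6 ± 3.81 in VSG mice and 4.97 ± 2.03 in sham mice (SD, n = 16 each). They give no sex or age.

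MMPs are zinc-dependent enzymes that together cut most proteins of the extracellular matrix. They are made as inactive precursors, and TIMPs block the active enzymes one to one. ADAMs are membrane-bound relatives that release the outer parts of growth factors, cytokines and receptors from the cell surface, although several have lost the catalytic site. ADAMTS proteases are secreted and cut proteoglycans, trim procollagens or act on microfibrils. In fat, these enzymes take part in remodelling the matrix around adipocytes as the tissue grows or shrinks.

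Values are the deposited normalized values, each a gene's read count over its library's size factor. Libraries held 15.7 to 37.2 M reads after VSG and 20.2 to 36.7 M reads after sham surgery. Testing was limited to genes averaging 10 or more across the 32 libraries, which kept 50 of the 56 members (15 Mmp, 4 Timp, 15 Adam and 16 Adamts) among 15588 genes. Fold changes were taken from log2(value + 1), so those of low genes are understated, and are given ± SE. A gene was called at an adjusted p under 0.05 in limma, a linear model fitted over all genes. Adipocyte markers were high in every library, with a mean log2 level of 15.2 to 16.3 after VSG and 15.7 to 16.5 after sham surgery, as the tissue label says. Markers of B cells stood high in 4 libraries, 3 VSG and 1 sham, and those of skeletal muscle in 7, 5 VSG and 2 sham. Sham ZT1 replicate 4 had the highest value of all 32 libraries for 12 of the 50 tested members, and VSG ZT7 replicate 2 had the lowest for 13. In bulk tissue, fewer cells of a type and less RNA per cell cannot be told apart.

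Per kilobase of exon, the inhibitor Timp2 stood highest among the members, with a mean normalized value of 2993 per kb after VSG and 2905 per kb after sham surgery. Mmp2, a gelatinase that cuts denatured collagen and basement membrane collagen, had 1444 and 1810 per kb in VSG and sham fat. Timp4, an inhibitor rich in fat, had 1991 per kb after VSG and 1538 per kb after sham surgery. Adam15 had 1522 per kb in VSG fat and 1372 per kb in sham fat, and Adamts5, the main aggrecanase of mouse cartilage, had 830 per kb in VSG fat and 1353 per kb in sham fat. These 5 genes held the first 5 places in sham fat. Mmp8, a collagenase stored in neutrophil granules, had 37.2 per kb after VSG and 2.11 per kb after sham surgery, where it was 49th of the 56 members.

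Over all 4 times, 23 of the 50 tested members differed between VSG and sham fat, 6 higher and 17 lower after VSG. That is 46.0% of the tested members, beside 39.2% of all 15588 genes, of which 18.3% were higher and 20.9% lower. The median log2 fold change was -0.07 over the members and 0.01 over all genes. Of 15 Mmp genes 3 were higher and 3 lower, of 4 Timp genes 1 was higher and 1 lower, of 15 Adam genes none was higher and 4 were lower, and of 16 Adamts genes 2 were higher and 9, or 56.2%, lower. Whether the families differ from each other was not tested. Of the 23, 9 changed at least 1.5-fold, 3 higher (Mmp8, Mmp9 and Adamts20) and 6 lower (Adamts17, Mmp13, Adam12, Adamts5, Adamts1 and Adamts2). The sign was the same at all 4 times for 21 of the 23, with Adamts20 and Adam23 as the exceptions, both at ZT19. The 23 were called on the mean over these same 4 times, which favours a shared sign. Its share among all called genes was not counted.

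**Figure D1:**
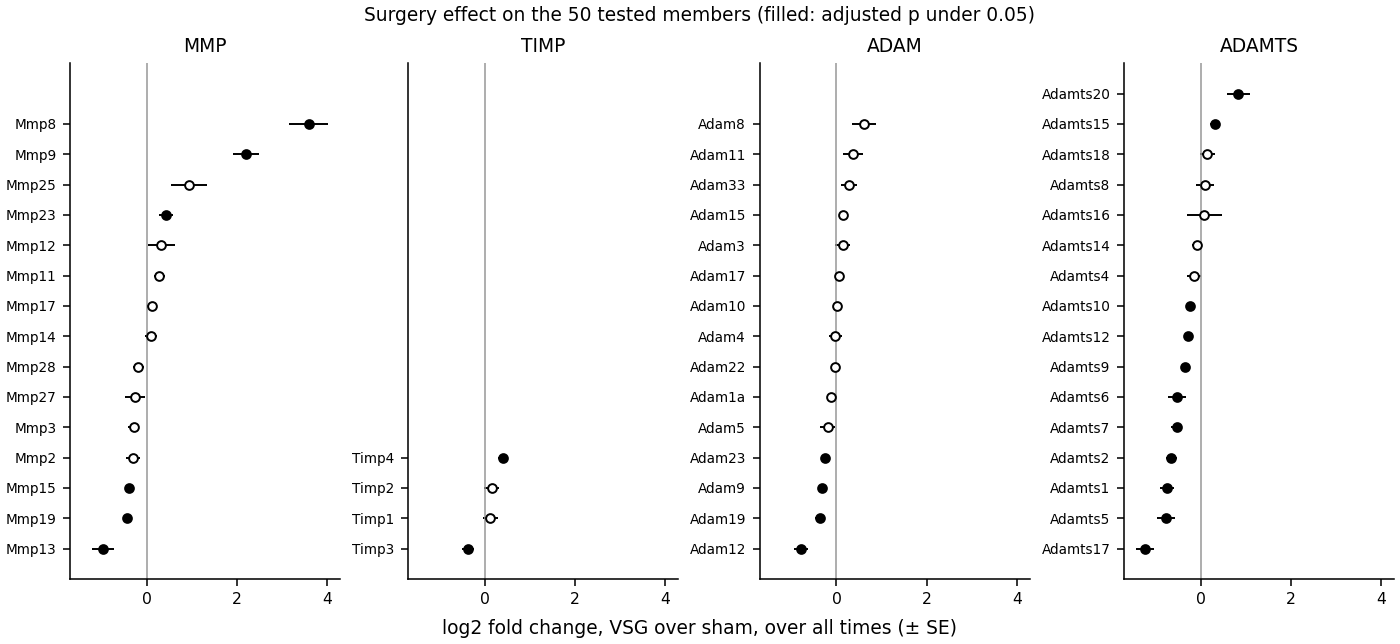
Log2 fold change of VSG over sham (x axis, ± SE, over all 4 times) for the 50 tested members in 4 panels by family; filled points passed an adjusted p of 0.05. Mmp8 and Mmp9 lie far right of the rest at 3.58 and 2.19, while 9 of the 16 ADAMTS genes are filled on the left.

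Mmp8 and Mmp9 rose most. Mmp8 (ENSMUSG00000005800, chromosome 9, 7558429 to 7568486, mm10) ran from 6.34 through a median of 59.2 to 373 in the 16 VSG libraries, against 0 through 3.50 to 16.1 in the 16 sham libraries. Of the VSG libraries, 14 lay above the highest sham library and all 16 above the sham median. The mean was 90.3 ± 103 in VSG fat and 5.12 ± 4.79 in sham fat (SD, n = 16 each). Mmp8 thus rose 12.0-fold, or by 3.58 ± 0.43 in log2 (adjusted p = 2.66e-06). Few reads stand behind the sham values, 0 to 18 per library and 81 in all, while VSG libraries held 4 to 309 and 1427 in all.

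Mmp9, the second gelatinase and like Mmp8 a neutrophil granule enzyme that macrophages and other cells also make (ENSMUSG00000017737, chromosome 2, 164940780 to 164955850), ran from 198 through 783 to 2750 after VSG, against 73.4 through 178 to 513 after sham surgery. Here 11 VSG libraries lay above the highest sham library and all 16 above the sham median. The mean was 1116 ± 835 in VSG fat and 209 ± 123 in sham fat (SD, n = 16 each), a 4.55-fold rise (2.19 ± 0.29, adjusted p = 5.93e-06). Per kb of exon, Mmp9 had 315 after VSG, beside 315 for the macrophage elastase gene Mmp12, and 59.1 after sham surgery, beside 252 for Mmp12.

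Markers of neutrophils were higher after VSG too. All 8 rose, by a median of 4.17 in log2, and their mean log2 level ran from 4.21 through a median of 7.18 to 10.5 after VSG, against 2.0 through 3.22 to 5.77 after sham surgery. The 2 libraries with the most Mmp8, VSG ZT13 replicate 1 at 373 and VSG ZT1 replicate 1 at 295, had the 2 highest marker levels, 10.4 and 10.5. Both are among the 4 libraries high in markers of B cells and lymph node. In VSG fat, the libraries with the least Mmp8, ZT7 replicate 1 at 6.34 and ZT19 replicate 2 at 10.1, had the 2 lowest, 4.73 and 4.21. Among sham libraries, ZT19 replicate 4 had both the most Mmp8, 16.1, and the highest marker level, 5.77. For Mmp9 the highest VSG value, 2750, was in ZT1 replicate 1 and the lowest, 198, in ZT19 replicate 2. Its highest sham value, 513, was in ZT1 replicate 4, where the marker level was 3.46, near the sham median. All 6 macrophage markers rose too, with a median log2 fold change of 0.78. The part of these cells in the rise of Mmp8 and Mmp9 was not tested.

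**Figure D2:**
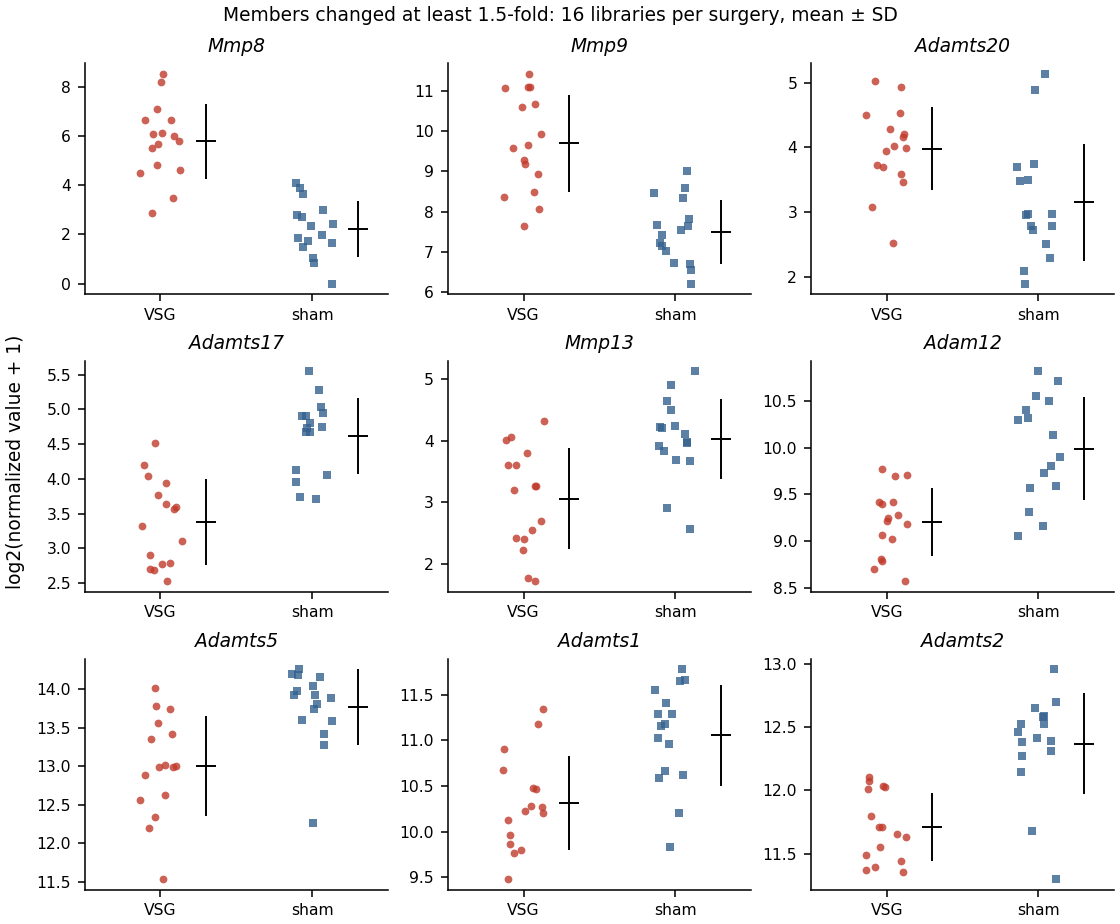
Log2(normalized value + 1) (y axis) in the 16 VSG libraries (left, circles) and the 16 sham libraries (right, squares) for the 9 members called with at least a 1.5-fold change; bars are the mean ± SD. Mmp8 and Mmp9 overlap little between surgeries, and for Adamts17, Adam12 and Adamts2 all 16 VSG points lie below the sham median.

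Mmp25, a membrane-anchored MMP known from neutrophils, was not called (0.93 ± 0.39, adjusted p = 0.0606). Its highest values were 108, 98.0 and 73.0 in VSG libraries and 88.1 in a sham library, which are the 4 B-cell-marker libraries. Medians were 16.9 after VSG and 8.75 after sham surgery. Mmp12, the macrophage elastase, ran from 557 through 2197 to 4331 after VSG and from 392.5 through 1517 to 5076 after sham surgery. The 2 ranges nearly coincide, and the change was not called (0.32 ± 0.30, adjusted p = 0.409).

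Mmp13, a collagenase of bone, cartilage and wounds, fell in the same comparison in which the collagenase Mmp8 rose. It ran from 2.29 through 8.37 to 19.03 after VSG, against 4.95 through 15.6 to 33.9 after sham surgery, and 14 of 16 VSG libraries lay below the sham median. The fall was 1.97-fold (log2 fold change -0.98 ± 0.25, adjusted p = 0.00292), from 2 to 24 reads per VSG library and 4 to 31 per sham library. Mmp3, the stromelysin that cuts proteoglycans and activates other MMPs, ran from 456 through 1014 to 1670 after VSG and from 700 through 1191 to 1743 after sham surgery. It was not called over all times (-0.30 ± 0.13, adjusted p = 0.0647). It was called when any 1 of 5 libraries was left out: VSG ZT1 replicate 4 (-0.36), VSG ZT7 replicate 1 (-0.35), sham ZT1 replicate 1 (-0.33), sham ZT7 replicate 2 (-0.34) or sham ZT13 replicate 1 (-0.36).

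These 3 genes lie in the same stretch of a chromosome, with other genes between them. On mouse chromosome 9 of mm10, 6 members lie on the plus strand between 7272514 and 7699585, in the order Mmp13, Mmp12, Mmp3, Mmp8, Mmp27 and Mmp7. Along this stretch Mmp13 fell, Mmp8 rose, Mmp12, Mmp3 and Mmp27 (-0.26 ± 0.22) were not called, and Mmp7 was under the minimum. The 250 bases before the RefSeq start (GRCm38.p6, plus strand) are shown for the collagenase that fell, the collagenase that rose and a stromelysin between them. They lie at chr9:7272264-7272513 for Mmp13, chr9:7445572-7445821 for Mmp3 and chr9:7558179-7558428 for Mmp8. Capitals mark TGANTCA, the motif of the AP-1 transcription factors, searched on both strands. It begins 35 bases before the start in Mmp13 and 46 bases before it in Mmp3, and Mmp8 has none in this window. Mmp12, which also lies between Mmp13 and Mmp8, is not shown. It has 2 RefSeq starts, and the promoter of the 1 start searched holds none either.
Mmp13: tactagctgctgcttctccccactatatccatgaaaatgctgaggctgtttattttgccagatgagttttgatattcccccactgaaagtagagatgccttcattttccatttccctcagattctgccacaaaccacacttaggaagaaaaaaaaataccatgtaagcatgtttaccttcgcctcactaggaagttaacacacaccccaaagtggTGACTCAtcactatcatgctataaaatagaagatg
Mmp3: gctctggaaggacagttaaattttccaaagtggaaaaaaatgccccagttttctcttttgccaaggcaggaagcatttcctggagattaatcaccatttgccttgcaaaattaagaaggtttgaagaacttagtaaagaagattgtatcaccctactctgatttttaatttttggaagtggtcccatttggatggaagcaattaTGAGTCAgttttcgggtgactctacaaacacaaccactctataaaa
Mmp8: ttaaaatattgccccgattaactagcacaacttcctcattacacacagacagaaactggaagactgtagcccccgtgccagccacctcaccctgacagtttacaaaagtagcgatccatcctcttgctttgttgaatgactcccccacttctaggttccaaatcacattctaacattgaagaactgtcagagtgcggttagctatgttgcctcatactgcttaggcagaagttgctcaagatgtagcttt

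RefSeq promoters of 300 bases, 250 before to 50 after the start, were at hand for 35 of the 56 members. Only 1 start per gene was searched, although Adam19, Mmp7, Mmp12 and Mmp23 have more than 1. The AP-1 letters stood in 3 of the 35, Mmp13, Mmp3 and Mmp7, beside 7.91% of 27025 promoters. All 3 lie in the chromosome 9 stretch. A match describes the letters and not a bound site.

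Mmp2 and Mmp14, which fat stroma makes in quantity, were not called. Mmp2 ran from 2270 through 4679 to 8090 after VSG and from 3435 through 5468 to 15976 after sham surgery, and 13 of 16 VSG libraries lay below the sham median. The change was not called (-0.32 ± 0.16, adjusted p = 0.113), but it was without sham ZT1 replicate 1 (-0.39). The sham maximum of 15976 was sham ZT1 replicate 4. Mmp14, the membrane-type MMP that activates Mmp2 together with Timp2, averaged 2804 ± 856 in VSG fat and 2669 ± 1169 in sham fat (SD, n = 16 each) and was not called (0.09 ± 0.13).

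3 other MMPs were called with smaller changes. Mmp15, another membrane-type MMP, fell 1.31-fold (-0.39 ± 0.09, adjusted p = 0.00206), with 1232 ± 290 after VSG and 1601 ± 346 after sham surgery. Mmp19 fell 1.36-fold (-0.45 ± 0.09, adjusted p = 0.000373), with 1003 ± 222 after VSG and 1352 ± 209 after sham surgery, and 15 of 16 VSG libraries lay below its sham median. Mmp19 shares 22.3% of its exon bases with Tmem198b on the other strand. Mmp23 rose 1.34-fold (0.42 ± 0.16, adjusted p = 0.0349), a call that stood in 22 of 32 fits that left out 1 library. It was also lost without the 4 B-cell-marker libraries (0.41, adjusted p = 0.0696).

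The 4 inhibitors did not move together. Timp4 rose 1.33-fold over all times (log2 fold change 0.41 ± 0.12, adjusted p = 0.0071) and ran from 5410 through 11666 to 16622 after VSG, against 3468 through 9688 to 14888 after sham surgery. It was the higher one in VSG fat at each time, with 4 VSG libraries above the highest sham library. The call was lost without the 7 libraries high in muscle markers (0.39, adjusted p = 0.0581). Timp3, a matrix-bound inhibitor that also blocks ADAM17 and aggrecanases, fell 1.29-fold (-0.37 ± 0.13, adjusted p = 0.023). It ran from 1365 through 2774 to 6402 after VSG and from 1401 through 3242 to 7150 after sham surgery. Timp3 missed the threshold once B cell and muscle markers were covariates (-0.19, adjusted p = 0.249), once the 7 muscle-marker libraries were left out (-0.33, adjusted p = 0.118) and without the pair that stood apart (-0.27, adjusted p = 0.0672).

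Timp1 and Timp2 were not called. Timp1, an inducible inhibitor, ran from 50.6 through 128 to 211 after VSG and from 46.2 through 112 to 220 after sham surgery (0.12 ± 0.17, adjusted p = 0.593). Timp2 ran from 5987 through 10356 to 20273 after VSG and from 6030 through 9527 to 41284 after sham surgery (0.15 ± 0.18, adjusted p = 0.509). The 41284 belongs to sham ZT1 replicate 4, and without that library Timp2 was called higher after VSG (0.31, adjusted p = 0.0238). Timp1, Timp3 and Timp4 lie inside the synapsin genes Syn1, Syn3 and Syn2 on the opposite strand. Syn3 shares 21.3% of Timp3's exon bases, but its mean was 27.9 beside 3361 for Timp3.

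Among the ADAMs, Adam12 fell most. Adam12, a meltrin that sheds ligands of the EGF receptor and marks activated mesenchymal cells, ran from 378 through 598 to 874 after VSG, against 531 through 1039 to 1803 after sham surgery. All 16 VSG libraries lay below the sham median, and the fall was 1.73-fold (-0.79 ± 0.15, adjusted p = 0.000256). The related meltrins Adam9 and Adam19 fell 1.25-fold (-0.32 ± 0.07, adjusted p = 0.000813) and 1.29-fold (-0.37 ± 0.11, adjusted p = 0.00685). Adam9 averaged 2864 ± 406 after VSG and 3589 ± 519 after sham surgery, and again all 16 VSG libraries lay below the sham median. Adam19 lost its call without the 7 muscle-marker libraries (-0.22, adjusted p = 0.226). Adam23, which has no catalytic site, was called by a narrow margin (-0.25 ± 0.10, adjusted p = 0.0479) that held in 4 of 11 alternatives and in 13 of 32 fits without 1 library.

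The 2 sheddases with the broadest known roles were not called. Adam10, which starts Notch signalling, averaged 1929 ± 195 after VSG and 1932 ± 305 after sham surgery (0.01 ± 0.07), and its sign turned under several settings. Adam17, which releases TNF and EGF receptor ligands, averaged 1334 ± 202 after VSG and 1275 ± 142 after sham surgery (0.06 ± 0.06, adjusted p = 0.439). Neither p shows that the levels are equal.

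Adam8, a protease of leukocytes, ran from 389 through 1552 to 3431 after VSG, against 302 through 938 to 1597 after sham surgery, and 6 VSG libraries lay above the highest sham library. It was 1.52-fold higher but not called (0.61 ± 0.26, adjusted p = 0.0678). On whole reads it was called by edgeR (0.79, adjusted p = 0.0152) and DESeq2 (0.80, adjusted p = 0.00474). It was called as well without the 7 muscle-marker libraries (0.76, adjusted p = 0.0336) and without the pair that stood apart (0.72, adjusted p = 0.0245). It was also called without VSG ZT1 replicate 3 (0.69), VSG ZT7 replicate 2 (0.74), VSG ZT19 replicate 2 (0.74) or VSG ZT19 replicate 4 (0.68).

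The ADAMTS family held the most falls. Adamts17, linked to fibrillin microfibrils, fell 2.36-fold (log2 fold change -1.24 ± 0.19, adjusted p = 2.97e-05). It is a low gene, running from 4.76 through 9.92 to 21.9 after VSG, against 12.1 through 25.8 to 45.7 after sham surgery, and 11 of 16 VSG libraries lay below the lowest sham library. Reads were 3 to 30 per VSG library and 10 to 41 per sham library.

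The aggrecanases Adamts5 and Adamts1, neighbours on chromosome 16, fell together. Adamts5 ran from 2963 through 8177 to 16566 after VSG, against 4910 through 15311 to 19659 in sham fat, and fell 1.70-fold (-0.77 ± 0.20, adjusted p = 0.00366). Adamts1 ran from 713 through 1215 to 2595 after VSG, against 912 through 2300 to 3518 in sham fat, and fell 1.67-fold (-0.74 ± 0.16, adjusted p = 0.000656). The 2 groups overlap for both genes, but 15 and 14 of 16 VSG libraries lay below the sham medians. Adamts9, which also cuts proteoglycans, fell 1.28-fold (-0.36 ± 0.08, adjusted p = 0.00152). In contrast Adamts15 rose 1.24-fold (0.31 ± 0.11, adjusted p = 0.0204), and Adamts4 (-0.15 ± 0.16) and Adamts8 (0.10 ± 0.20) were not called.

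Adamts20, a versican-cutting relative of Adamts9, rose 1.78-fold (0.83 ± 0.26, adjusted p = 0.0129) at low levels, from 4.71 through 15.0 to 31.4 after VSG, against 2.72 through 6.75 to 34.2 after sham surgery. The highest sham value was the sham library high in B cell markers. Of the 3 VSG libraries high in them, ZT1 replicates 3 and 1 had the highest VSG values, 31.4 and 29.6. ZT13 replicate 1 had 16.9. With the marker covariates for B cells and muscle the change was 0.46 (adjusted p = 0.151), and without the 7 muscle-marker libraries it was 0.78 (adjusted p = 0.108).

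Adamts2, the protease that removes the amino-terminal propeptide of fibrillar procollagens, ran from 2613 through 3280 to 4397 after VSG, against 2517 through 5547 to 7953 after sham surgery. All 16 VSG libraries lay below the sham median, and the fall was 1.58-fold (-0.66 ± 0.12, adjusted p = 0.000153). Its relative Adamts14 was not called (-0.09 ± 0.10). Adamts7 and Adamts12, which cut the cartilage protein COMP, fell 1.44-fold (-0.53 ± 0.12) and 1.22-fold (-0.28 ± 0.10). Adamts6 and Adamts10 fell 1.43-fold (-0.52 ± 0.20) and 1.18-fold (-0.23 ± 0.07). Of these 4, Adamts7 kept its call in every fit run. Adamts6 lost it in 4 alternatives, both count tests among them, and in 12 of the fits without 1 library, Adamts12 in 3 alternatives and without VSG ZT13 replicate 4 (-0.25), VSG ZT19 replicate 1 (-0.25) or sham ZT19 replicate 3 (-0.25), and Adamts10 with the marker covariates (-0.20, adjusted p = 0.0668).

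In all, 14 of the 23 members, 3 higher and 11 lower, were called under all 11 alternatives and in all 32 fits without 1 library. The share of all called genes that held throughout was not counted, so the 14 are not shown to be unusual. These were Mmp8, Mmp9 and Adamts15 among the higher, and Mmp13, Mmp15, Mmp19, Adam9, Adam12, Adamts1, Adamts2, Adamts5, Adamts7, Adamts9 and Adamts17 among the lower. Over those fits the log2 fold change stayed between 2.74 and 4.24 for Mmp8, 1.99 and 2.39 for Mmp9, -1.38 and -0.97 for Adamts17, and -0.73 and -0.45 for Adamts2. Progenitor and fibroblast markers, whose cells make much of the matrix, were called in 0 of 6 cases (median -0.14), at a mean log2 level of 11.25 to 12.98 after VSG and 11.32 to 13.95 after sham surgery. Their part in the falls was not tested.

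The 6 members under the minimum were Adam2, Adam32, Adam6b, Adamts3, Adamts13 and Mmp7. Fitted without the minimum, Adam2 was higher after VSG (1.33 ± 0.45, adjusted p = 0.0229) and Adamts3, a procollagen protease like Adamts2, was lower (-0.86 ± 0.27, adjusted p = 0.0159), with all 16 VSG libraries below the sham median of 5.87. Adam6b, which lies in the immunoglobulin heavy-chain region, and Adamts13, which cuts von Willebrand factor, had their highest values in the 4 B-cell-marker libraries. For Adam6b these were 24.5, 47.5 and 20.5 in VSG libraries and 51.3 in the sham library, against at most 5.89 elsewhere. For Adamts13 they were 19.4, 38.7 and 25.4 in VSG libraries and 8.55 in the sham library, against at most 6.18 elsewhere. Mmp7 was at 0 in 27 of 32 libraries.

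**Figure D3:**
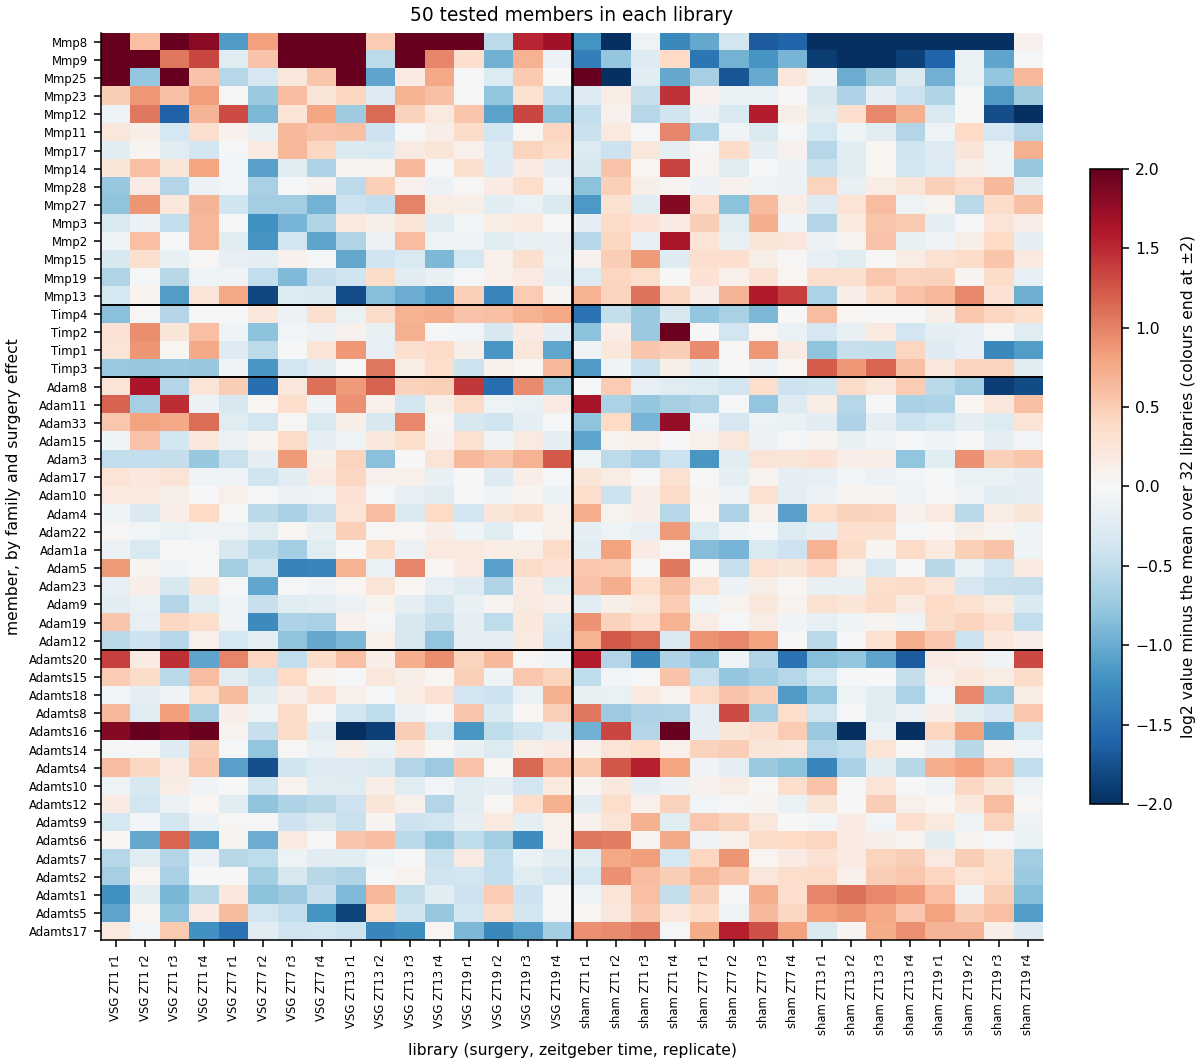
Log2 value minus the mean over 32 libraries for each tested member (rows, by family and then by surgery effect), with the 16 VSG libraries left of the line and the 16 sham libraries right of it; colours end at ±2. Mmp8 and Mmp9 are mostly red on the VSG side and blue on the sham side, Adamts17 and Adamts2 mostly show the opposite, and sham ZT1 r4 is red for Adamts16, Timp2, Mmp2, Mmp14, Mmp27 and Adam33.

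At single times, with 4 animals against 4, fewer members passed. At ZT1, 3 of 50 were called (5.52% of all genes), 2 higher (1.17% of all genes) and 1 lower (4.34%). Mmp8 had 23.5, 55.3, 100 and 295 in VSG libraries against 2.29, 5.60, 5.99 and 13.9 in sham libraries (log2 fold change 3.54 ± 0.87, adjusted p = 0.0241). Mmp9 had 806, 979, 1638 and 2750 after VSG against 149, 225, 325 and 513 after sham surgery (2.32 ± 0.58, adjusted p = 0.0251). For both genes every VSG value lay above every sham value. How many of all genes separate in this way at a single time was not counted. Adam12 fell (-1.05 ± 0.30, adjusted p = 0.0416). None of the 3 was called without the 4 B-cell-marker libraries, 3 of which are ZT1 libraries, at 2.44, 1.92 and -0.84 for Mmp8, Mmp9 and Adam12. The count was also 0 without VSG ZT1 replicate 1 or 3 or sham ZT1 replicate 2 or 3, 9 without sham ZT1 replicate 1 or 4, and 5 without sham ZT19 replicate 4.

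At ZT7, 7 members were called (5.09% of all genes), 1 higher (1.73% of all genes) and 6 lower (3.36%). Mmp9 had 327, 577, 1538 and 2161 in VSG libraries against 141, 170, 201 and 202 in sham libraries (2.33 ± 0.58, adjusted p = 0.0243). Adamts17 had 4.76, 11.1, 11.4 and 12.6 after VSG against 25.6, 26.9, 38.0 and 45.7 after sham surgery (-1.71 ± 0.39, adjusted p = 0.0162), with no overlap. Adam12 had 378, 441, 606 and 681 after VSG against 769, 1358, 1447 and 1501 after sham surgery (-1.26 ± 0.30, adjusted p = 0.0211), also with no overlap. Mmp3 was called at this time only, with 456, 549, 694 and 1018 after VSG against 890, 998, 1475 and 1743 after sham surgery (-0.92 ± 0.26, adjusted p = 0.037), and its groups overlap. Mmp19 (-0.66 ± 0.18), Adamts2 (-0.84 ± 0.24) and Adam19 (-0.71 ± 0.21) also fell. Without VSG ZT7 replicate 2 the calls numbered 3, beside 360 of all genes (main 794). They numbered 1 without VSG ZT7 replicate 3 or 4 or sham ZT7 replicate 1, 2 or 3 (82 to 234 of all genes). Without VSG ZT7 replicate 1 they numbered 12 (1668 of all genes).

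At ZT13, 7 members were called (9.94% of all genes), 3 higher (4.21% of all genes) and 4 lower (5.72%). Mmp8 had 21.8, 68.8, 100 and 373 after VSG against 0, 0.78, 1.81 and 2.93 after sham surgery; the sham values come from 0, 1, 2 and 3 reads (5.39 ± 0.87, adjusted p = 0.00256). Mmp9 had 268, 761, 2186 and 2197 after VSG against 73.4, 93.2, 103 and 105 after sham surgery (3.41 ± 0.58, adjusted p = 0.00332), and Adamts20 was higher too (1.68 ± 0.52, adjusted p = 0.0392). Adamts1 had 892, 1177, 1416 and 2595 after VSG against 3008, 3214, 3246 and 3518 after sham surgery (-1.21 ± 0.32, adjusted p = 0.0215). Adamts5 had 2963, 6299, 8130 and 14102 after VSG against 15610, 18375, 18896 and 19659 after sham surgery (-1.41 ± 0.40, adjusted p = 0.0289). For Mmp8, Mmp9, Adamts1 and Adamts5 the groups do not overlap, but the share of all genes that separate so was not counted. Mmp15 (-0.58 ± 0.19, adjusted p = 0.0474) and Adam9 (-0.43 ± 0.14, adjusted p = 0.0496) fell as well. The count was 2 or 3 without any single ZT13 library, except 11 without VSG ZT13 replicate 2, and 1 (Mmp8) without the muscle-marker libraries.

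At ZT19 no member was called in limma, edgeR or DESeq2, nor any of the 15588 genes in limma (0%). Of all genes, edgeR called 0 and DESeq2 called 58. At an unadjusted p under 0.05 there were 3 members (1072 of all 15588 genes), Mmp8 (3.04 ± 0.87), Adamts17 (-1.30 ± 0.39) and Adam8 (1.24 ± 0.53). Here Mmp9 had 198, 358, 487 and 626 after VSG against 128, 186, 352 and 381 after sham surgery, and the groups overlap. Of the 4 VSG libraries at ZT19, 3 are high in muscle markers. Whether the surgery effect differs between times was tested directly. No member passed in limma, edgeR or DESeq2. Of all genes 0% passed in limma, none in edgeR and 1 in DESeq2. At an unadjusted p under 0.05 there were 2 members (225 of all 15588 genes). These were Mmp9, whose log2 fold changes spanned 2.72 over the times, and Adamts14, whose span was 0.84. So a member called at 1 time and not at another is not shown to differ between them.

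Time of day was fitted as a 24 h cosine, whose amplitude is the log2 distance from mean to peak. In VSG fat 2 members passed (0.507% of all genes). Adamts4, an aggrecanase, had 172 ± 22.7, 74.1 ± 32.1, 91.7 ± 14.4 and 200 ± 62.8 at ZT1, 7, 13 and 19 (SD, n = 4 each; amplitude 0.87, peak 21.1 h, adjusted p = 0.00958). Timp3 had 1828 ± 16.0, 2317 ± 675, 4204 ± 1508 and 3386 ± 1052 (amplitude 0.63, peak 14.7 h, adjusted p = 0.0274). Timp4 had 7850 ± 2262, 10426 ± 1499, 13270 ± 3348 and 15384 ± 984 and did not pass (amplitude 0.48, adjusted p = 0.176). The Timp3 call was lost without any 1 of the 4 VSG ZT1 libraries (amplitude 0.63 to 0.64) and without VSG ZT13 replicate 2 (0.54) or 4 (0.64), which left 1 call. It was also lost with the marker covariates (0.54, adjusted p = 0.103), without the 4 B-cell-marker libraries (0.70, adjusted p = 0.0521) and without the 7 muscle-marker libraries (0.67, adjusted p = 0.103). Leaving out the muscle-marker libraries ended the call of Adamts4 as well (1.06, adjusted p = 0.095), and the 1 member called there was Adamts16.

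In sham fat 3 members passed (1.6% of all genes). Adamts4 had means of 268 ± 85.4, 94.1 ± 24.9, 80.9 ± 23.6 and 179 ± 60.9 at ZT1, 7, 13 and 19 (SD, n = 4 each), with an amplitude of 0.96 and a fitted peak at 23.2 h (adjusted p = 0.00209). Timp3 had 2481 ± 845, 2942 ± 243, 6075 ± 1173 and 3658 ± 724 at these times (amplitude 0.69, peak 13.8 h, adjusted p = 0.00703). Timp4 had 5991 ± 1873, 6694 ± 2079, 11054 ± 2559 and 12510 ± 1483 (amplitude 0.66, peak 16.0 h, adjusted p = 0.00877). Adamts4 was thus high around lights on, and both inhibitors after lights off. All 3 kept their calls in every alternative and in every fit without 1 library. No member differed in rhythm between VSG and sham fat, in limma or edgeR, nor did any gene (0%). At an unadjusted p under 0.05 there were 3 members (172 of all 15588 genes), Mmp3, Adam12 and Adamts14. For Timp4 the difference had an amplitude of 0.20 (adjusted p = 1).

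**Figure D4:**
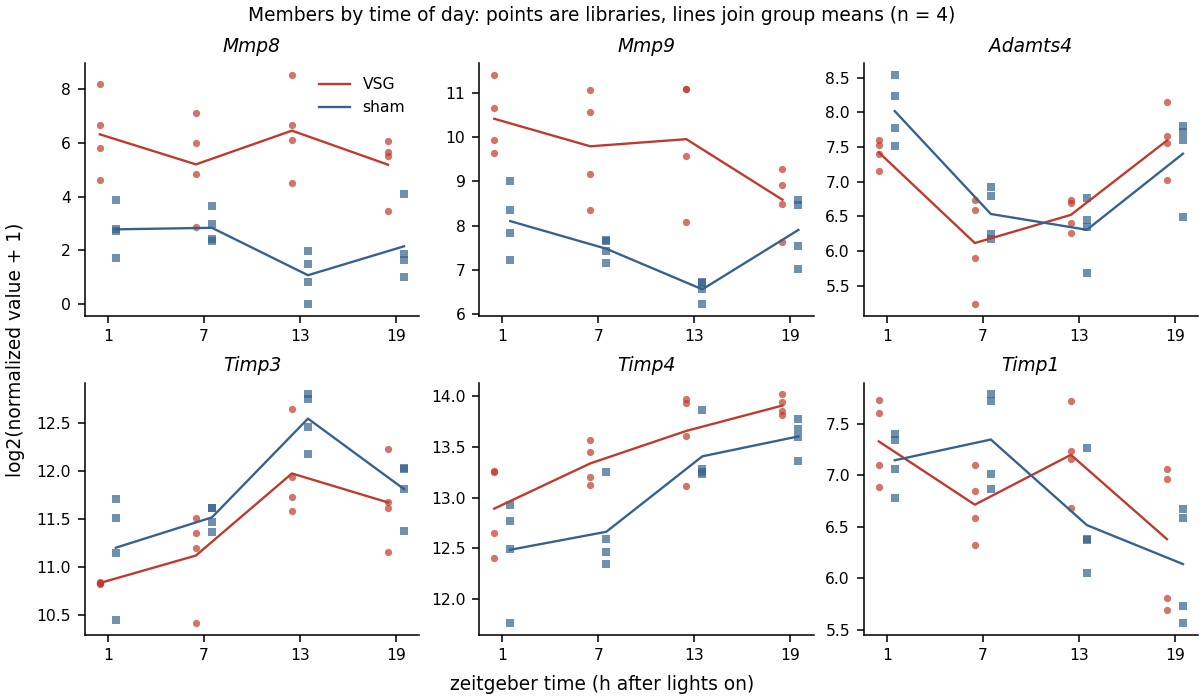
Log2(normalized value + 1) (y axis) against zeitgeber time (x axis, h) in VSG (circles) and sham (squares) libraries, with lines joining the means of 4. Mmp8 and Mmp9 stay higher after VSG at each time, Adamts4 dips at ZT7 and ZT13 in both surgeries, and Timp3 is highest at ZT13 in both.

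Clock factors bind the E-box CACGTG and the D-box TTANNTAA. Of the 35 members with a RefSeq promoter, 3 held the E-box letters (Adam10, Adam19 and Adamts17), beside 7.09% of all promoters, and 4 held the D-box letters (Adam6b, Mmp12, Mmp27 and Mmp28), beside 6.16%. Both strands were searched. Timp3 and Timp4 held neither within these 300 bases. Adamts4 was not among the 35, so its promoter was not searched.

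Weight loss was read within each surgery, as the slope of log2 value per unit of weight loss with a mean per time. In VSG fat no member was called in limma or edgeR (2.71% of all genes in limma, 1.77% upward and 0.943% downward). Beside 3140 of all 15588 genes, 7 of the 50 tested members had an unadjusted p under 0.05. The largest of these slopes were 0.24 ± 0.08 for Mmp8 (adjusted p = 0.133), 0.19 ± 0.05 for Mmp9 (adjusted p = 0.0764), 0.17 ± 0.05 for Adam8 (adjusted p = 0.0855) and -0.12 ± 0.03 for Adamts5 (adjusted p = 0.0751). Timp1 had 0.09 ± 0.03 (adjusted p = 0.0758). The slopes of Mmp8, Mmp9 and Adam8 were thus upward and that of Adamts5 downward, at adjusted p-values above the threshold. The median slope was 0.22 over the 8 neutrophil markers, none of them called, and 0.13 over the 6 macrophage markers, of which 2 were called upward. The part of these cells in the members' slopes was not tested. With the marker covariates for B cells and muscle, Timp1 (0.11), Adam8 (0.22) and Adamts5 (-0.11) passed, beside 740 of all genes. Single libraries also moved the count, which was 2 without VSG ZT1 replicate 2 (961 of all genes). It was 1 without VSG ZT1 replicate 4 (152 of all genes) or VSG ZT7 replicate 3 (762 of all genes).

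In sham fat no member was called either, in limma or edgeR (0.00642% of all genes in limma). Beside 2436 of all 15588 genes, 16 of the 50 tested members had an unadjusted p under 0.05. Adam33 (0.25 ± 0.05), Timp2 (0.24 ± 0.06), Mmp9 (0.20 ± 0.05), Mmp2 (0.18 ± 0.05) and Mmp23 (0.18 ± 0.04) had adjusted p-values of 0.0847, 0.094, 0.0977, 0.122 and 0.0965. Sham ZT1 replicate 4 had the highest sham weight loss, 8.96, and the highest progenitor and fibroblast marker level of all libraries, 13.95. Without it the slopes were 0.10 for Adam33, 0.02 for Timp2, 0.03 for Mmp2 and 0.06 for Mmp23, while Mmp9 had 0.23. Calls numbered 2 without sham ZT13 replicate 2 (186 of all genes) and 3 without sham ZT19 replicate 1 (127 of all genes).

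The slopes differed between surgeries for 1 member (0.616% of all genes), Adam33, a protease known from mesenchymal cells, with a VSG minus sham difference of -0.26 ± 0.06 (adjusted p = 0.0292). Adam33 ran from 562 to 1603 in VSG libraries, against 387 to 975 in 15 sham libraries and 2512 in sham ZT1 replicate 4. Without that library the difference was -0.11 (adjusted p = 1). The call was also lost without VSG ZT1 replicate 4 (-0.25), VSG ZT19 replicate 1 (-0.26) or sham ZT1 replicate 3 (-0.23). Leaving out sham ZT13 replicate 2 or 4 or sham ZT19 replicate 4 gave 2 calls (342, 290 and 138 of all genes). Leaving out sham ZT19 replicate 1 gave 3 (219 of all genes).

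**Figure D5:**
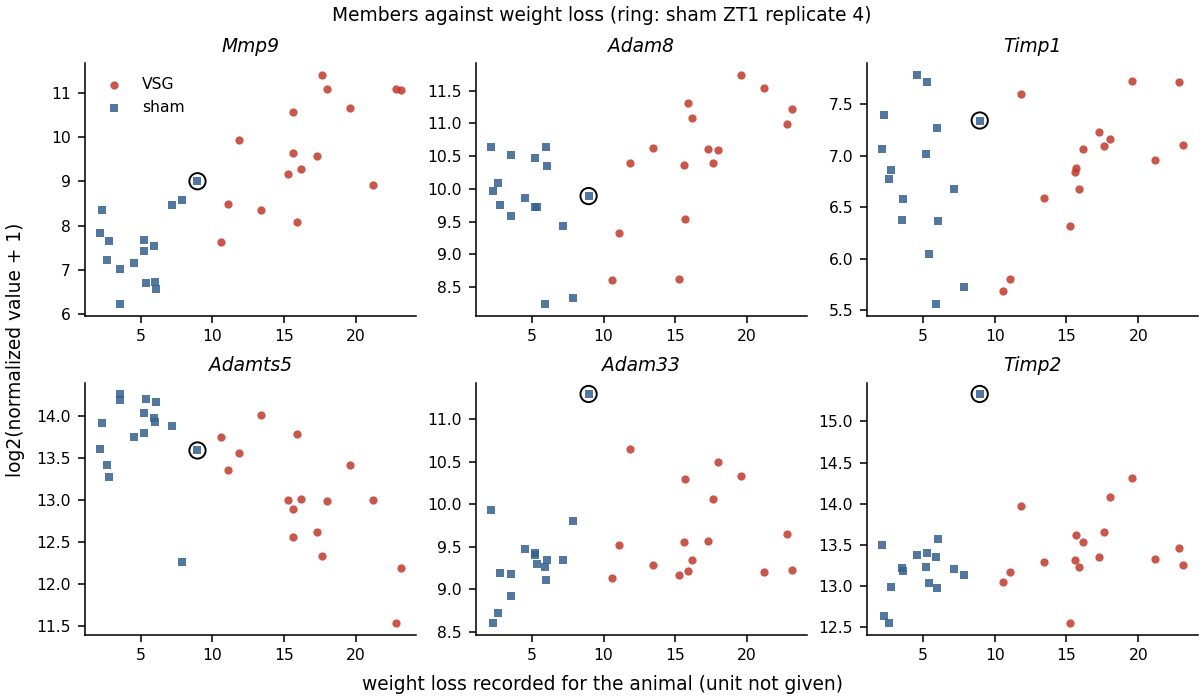
Log2(normalized value + 1) (y axis) against the recorded weight loss (x axis, no unit in the labels) in VSG (circles) and sham (squares) libraries; the ring marks sham ZT1 replicate 4. That library lies apart for Adam33 and Timp2, and among VSG libraries Mmp9 and Adam8 are higher and Adamts5 lower at larger weight loss.

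Related genes outside the 4 families were counted in the comparison over all times. Of 17 partners of MMPs and ADAMs (cell-surface inhibitors, proprotein convertases, rhomboid partners of ADAM17 and tetraspanins of ADAM10), 1 rose and 6 fell (median -0.14). Tfpi2, a serine protease inhibitor of the matrix, fell 2.09-fold (-1.06 ± 0.17, adjusted p = 3.72e-05), with 133 ± 33.8 after VSG and 293 ± 110 after sham surgery. Rhbdf1, which carries ADAM17 to the cell surface, fell 1.28-fold (-0.35 ± 0.09), and the convertase gene Pcsk5 rose 1.27-fold (0.35 ± 0.11).

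In the plasminogen system, whose plasmin activates several MMPs, 3 of 6 tested genes fell and none rose (median -0.31). Serpine2, an inhibitor of plasminogen activators and thrombin, fell by 0.55 on the log2 scale, and the activator gene Plau fell by 0.51. Of 7 ADAMTS-like genes, which lack the protease domain, 2 fell and none rose (median -0.12). Adamtsl2, which binds microfibrils, fell 3.76-fold (-1.91 ± 0.28, adjusted p = 1.44e-05), with 108 ± 61.0 after VSG and 428 ± 215 after sham surgery. Papln fell by 0.94. Of 5 other metalloproteinases 2 fell, Mme (-0.78) and the procollagen C-proteinase gene Bmp1 (-0.40), and 1 rose, Tll1 (0.30).

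Of 22 tested matrix substrates, 13 fell and none rose (median -0.59). Ncan, a proteoglycan cut by aggrecanases, fell most (-2.86), and the basement membrane collagen gene Col4a1 fell by 0.89. Of 19 membrane proteins that ADAMs shed, 7 rose and 5 fell (median 0.19). Tnfrsf1b (0.58) and Cx3cl1 (0.40) rose, and Hbegf (-0.89) and Egfr (-0.39) fell. Over all genes, 18.3% rose and 20.9% fell, the background for each of these counts.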

How the data were processed

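The authors deposited RNA-seq signal values, 1 column per animal, each a gene's read count over its library's size factor. Per the submitters' processing notes, which give no roles, STAR 2.5.2a, bcl2fastq 2.17.1.14, DESeq2 1.24.0, featureCounts 1.5.0-p1 and R 3.6.3 were used, with genome build mm10. Per the labels' protocols, RNA was extracted with Trizol and libraries were Illumina TruSeq. The strand setting of the counting is not known here, so reads of genes that overlap on opposite strands cannot be told apart. Every deposited value was a whole multiple of 1 read's worth within 0.001, so whole reads were recovered for edgeR and DESeq2.

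The design followed the labels, 8 groups of 4 animals. Replicate numbers only name libraries, and p-values measure the spread between animals. The main test was limma 3.58.1 (R 4.3.3, trended empirical Bayes) on log2(value + 1) for genes with a mean of at least 10, with Benjamini-Hochberg adjustment over 15588 genes. Surgery was tested over all times, at each time and as an interaction. Time of day was tested as a 24 h cosine, and weight loss as a slope with a mean per time. Alternatives were pseudocounts of 0.5 and 5, no minimum, TMM and quantile scaling, B cell and muscle marker covariates, leaving out the libraries high in either, edgeR 4.0.16, DESeq2 1.42.0, and leaving out each library. Leaving out sham ZT1 replicate 4 and VSG ZT7 replicate 2 together, the pair that stood apart, was chosen after seeing the data. The code was tested on simulated data.

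Every member was accounted for. Values by sample or by group were given for the TIMPs, 10 named proteases and members called with at least a 1.5-fold change. From each related list at most 2 called genes a direction were named, most with a log2 fold change only. Members and lists were chosen with earlier results of these data known. Promoters came from RefSeq (GRCm38.p6) and gene positions from GENCODE vM21.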

Additional observations from a re-analysis of the deposited data

Results flagged for a closer look

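In 11 of 208 groups of 4 animals, over 26 members, the highest or lowest animal lay far from the other 3, by Dixon's gap test at its critical value for 4 samples. Chance flags about 1 in 20 such groups, or 10.4 of 208, so 11 is near the number that chance gives. Sham ZT19 replicate 4 held 4 of the 11, all low: Adamts5 at 4910 (others 15102 to 18698), Adamts2 at 2517 (5074 to 5639), Adam19 at 474 (848 to 913) and Adamts4 at 89.1 (193 to 222). The same library had the most Mmp8 of the sham libraries.

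Among VSG libraries, Adamts17 was low in ZT7 replicate 1 at 4.76 (others 11.1 to 12.6), Timp2 was low in ZT7 replicate 2 at 5987 (9812 to 10213), and Mmp14 was high in ZT13 replicate 3 at 4085 (2554 to 2722). Among sham libraries, Adamts17 was low in ZT1 replicate 4 at 14.6 (29.1 to 31.6), Adam12 was low in ZT7 replicate 4 at 769 (1358 to 1501), Mmp2 was low in ZT7 replicate 2 at 4624 (5965 to 6209), and Timp4 was high in ZT13 replicate 1 at 14888 (9622 to 9940).

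The weight-loss slope of Adam33 differed between VSG and sham fat (-0.26, adjusted p = 0.0292), a difference that was -0.11 without sham ZT1 replicate 4.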

How the results depend on the processing

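No paired analysis was possible because the replicate numbers were given in accession order and pair no animals. The count of members called over all times, 23, was 17 to 24 under the alternatives and 19 to 25 without 1 library.

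Counts at single times and for weight loss moved more. With B cell and muscle marker covariates the counts were 0 at ZT1 (main 3), 4 at ZT13 (main 7), 3 and 2 for weight loss in VSG and sham fat (main 0 each) and 4 for the slope difference (main 1). Leaving out the 4 B-cell-marker libraries, they were 0 at ZT1, 3 at ZT13, 1 for time of day in VSG fat (main 2) and 2 for the slope difference. Without those high in muscle markers, which leaves 1 VSG library at ZT19, they were 6 at ZT1, 3 at ZT7 (main 7), 1 at ZT13, 1 for time of day in VSG fat (Adamts16, neither of the 2) and 0 for the slope difference. Without the pair that stood apart they were 10 at ZT1, 3 at ZT7 and 0 for the slope difference. On whole reads ZT1 had 5 in edgeR and 6 in DESeq2. Slopes from 1 fit of all libraries gave 4 in VSG and 2 in sham fat, and no mean per time gave 1 in VSG fat. The causes were not tested.

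Without 1 library, counts ran from 0 to 9 at ZT1, 1 to 12 at ZT7 and 2 to 11 at ZT13. They ran from 1 to 3 and 3 to 4 for time of day in VSG and sham fat. For weight loss they ran from 0 to 2 in VSG fat, 0 to 3 in sham fat and 0 to 3 for the slope difference. At ZT13 the 1549 calls over all genes became 197 to 817 without any 1 ZT13 library other than VSG ZT13 replicate 2. Without that library they became 2759. Adam10, near 0, turned negative with covariates (-0.064), without the 4 B-cell-marker libraries (-0.006) and in edgeR (-0.002), and ran from -0.038 to 0.032 without 1 library. Low read numbers limit Mmp8 in sham fat, Mmp13, Adamts17 and Adamts20.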
